A study of Homo sapiens with 4 samples.

Results

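MHC class I antigen presentation was followed through 9 genes in human fibroblasts depleted of the chromatin protein HMGB1. They were the heavy chain genes HLA-B, HLA-C, HLA-E and HLA-F, the light chain gene B2M, the transporter genes TAP1 and TAP2, and the immunoproteasome genes PSMB8 and PSMB9. They were chosen by name, as the rows of the count tables that carry these symbols on a primary chromosome, out of 63677 genes in all, and rows on haplotype contigs were not used. All 9 had 1 such row and all 9 passed the filter on low counts, as did 15398 genes in total. The 4 heavy chain genes are not the complete set of the genome.

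The RNA came from IMR90, a line of normal human lung fibroblasts, grown at passage 5 from 2 single isolates named I90-10 and I90-79. Cells received a non-targeting control siRNA (NTC) or siRNA targeting HMGB1, in both cases with the reagent RNAiMAX, and were collected after 72 h. Each group had 2 libraries of poly(A) RNA, replicate 1 from I90-10 and replicate 2 from I90-79, so that each isolate was present once in each group. No untransfected cells were among the libraries, and the controls therefore share the transfection itself. A knockdown reduces the mRNA of its target without removing the gene.

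Class I molecules display peptides from inside the cell at its surface, where T cells and natural killer cells read them. The proteasome cuts proteins into peptides, the TAP transporter carries the peptides into the endoplasmic reticulum, and there they are loaded onto a heavy chain paired with beta-2-microglobulin. Interferons raise many of these genes together, and the immunoproteasome subunits then replace their constitutive counterparts in newly made proteasomes. Most nucleated cells, fibroblasts among them, carry class I molecules, whereas class II molecules are mostly restricted to specialised antigen-presenting cells.

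In hg19, the build of the files, 8 of the 9 genes lie in the MHC region on chromosome 6. HLA-F (ENSG00000204642) runs from 29690552 to 29706305, HLA-E (ENSG00000204592) from 30457244 to 30461982, HLA-C (ENSG00000204525) from 31236526 to 31239907 and HLA-B (ENSG00000234745) from 31321649 to 31324965. Farther along lie TAP2 (ENSG00000204267) from 32789610 to 32806557, PSMB8 (ENSG00000204264) from 32808494 to 32812480, PSMB9 (ENSG00000240065) from 32811913 to 32827362 and TAP1 (ENSG00000168394) from 32812986 to 32821755. B2M (ENSG00000166710) is on chromosome 15 from 45003675 to 45011075. Each value below rests on the reads assigned to the gene, and gene lengths cover all annotated exons. How reads on bases shared with another gene were assigned is not known here.

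The depth was between 29861687 and 35317010 counted reads per library. HMGB1 had 181 and 237 CPM (reads scaled by library size) in the control libraries of I90-10 and I90-79 and 16.0 and 18.9 CPM in the knockdown libraries, a log2 fold change of −3.59 (standard error 0.19, edgeR adjusted p = 0.00751). The call was lost without either knockdown library, at adjusted p values of 0.0487 and 0.0324, while the log2 fold change stayed at −3.38 or below. All 9 fibroblast markers were detected, with summed levels of 34200 and 18000 CPM in control and 32700 and 20600 CPM in knockdown libraries, a sum carried mostly by COL1A1, COL1A2 and COL3A1 and lower in I90-79 in both groups. With a replicate block for the isolate, edgeR called THY1 (−0.99, adjusted p = 3.11e-04) and PDGFRB (−0.68, adjusted p = 0.00265) downregulated and LUM (0.83, adjusted p = 0.00294) upregulated among these markers, which it did not without the block. Markers of immune cells summed to between 0.163 and 0.693 CPM, and 3 of the 8 (CD3E, LYZ and AIF1) were at 0 in every library. The 7 endothelial and epithelial markers with a row, of 8 listed, summed to 2.18 and 1.63 CPM in control and 4.85 and 4.03 CPM in knockdown libraries. Most of these reads were on VWF, with 40 and 34 reads in control and 120 and 81 in knockdown libraries, while CDH5 and KRT5 were at 0 throughout. Their part in the results was not tested.

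The stretches of DNA before the start sites of 5 of the genes are shown first, because they hold the motifs through which interferon and NF-kappaB are known to act on this pathway. They run from 200 to 45 bases before the start given by RefSeq, in build GRCh38.p14, 5′ to 3′ on the strand of the gene, and come from the reference genome and not from these cells. Capitals mark matches to the core of the interferon regulatory factor (IRF) site, AANNGAAA on either strand, and to the NF-kappaB consensus.
HLA-B, chr6:31357224-31357379, minus strand: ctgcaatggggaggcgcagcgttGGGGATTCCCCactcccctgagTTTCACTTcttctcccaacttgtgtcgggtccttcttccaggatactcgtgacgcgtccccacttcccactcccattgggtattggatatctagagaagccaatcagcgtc
HLA-C, chr6:31272137-31272292, minus strand: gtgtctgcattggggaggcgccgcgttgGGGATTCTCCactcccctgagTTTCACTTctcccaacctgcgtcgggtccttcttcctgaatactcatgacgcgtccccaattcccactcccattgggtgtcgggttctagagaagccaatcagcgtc
B2M, chr15:44711317-44711472, plus strand: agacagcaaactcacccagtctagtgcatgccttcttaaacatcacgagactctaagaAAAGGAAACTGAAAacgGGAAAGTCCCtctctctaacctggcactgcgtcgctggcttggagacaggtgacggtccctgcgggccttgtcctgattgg
TAP1, chr6:32853749-32853904, minus strand: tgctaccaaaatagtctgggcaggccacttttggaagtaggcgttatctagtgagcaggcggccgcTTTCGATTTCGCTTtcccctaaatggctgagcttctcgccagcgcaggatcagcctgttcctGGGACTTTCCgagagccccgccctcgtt
TAP2, chr6:32838784-32838939, minus strand: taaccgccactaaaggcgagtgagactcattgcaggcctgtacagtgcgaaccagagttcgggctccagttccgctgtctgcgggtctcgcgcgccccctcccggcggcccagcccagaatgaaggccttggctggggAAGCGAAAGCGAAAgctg

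Promoter sequences from RefSeq were at hand for 8 of the 9 genes (HLA-E was not analysed here), and 7 of these 8 held the IRF core within the 300 bases from 250 before to 50 after a start site. Of 34943 promoter entries of this length, 22.9% held it. The 8 genes have 10 entries and are counted once each, with a match in any entry, while the shares of all promoters here are per entry. In B2M, TAP1, TAP2 and PSMB8 the core occurred as a pair of matches that overlapped by a pair of bases, and in HLA-B, HLA-C and HLA-F as a single match. The NF-kappaB consensus was matched in 4 of the 8 (HLA-B, HLA-C, B2M and TAP1) and in 5.9% of all promoters. The STAT element TTCNNNGAA was found for TAP1 and PSMB8, each in 1 of their 2 entries, and in 7.66% of all promoters. The CCAAT box and the CRE half-site TGACG, parts of the element read by the RFX, NF-Y and CREB complex, were each matched in 6 of the 8, beside 34.6% and 24.5% of all promoters. The promoters of HLA-B and HLA-C were identical in 88.5% of the aligned positions. PSMB9 held neither the IRF core nor the NF-kappaB consensus in this window, which says only that these letters were not there. The pair of IRF matches of TAP1 lies from 134 to 121 bases before its start, and an NF-kappaB match from 72 to 63. Both lie between the start sites of TAP1 and PSMB9, outside the window used for PSMB9. A match is not evidence of binding in these cells.

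**Figure D1:**
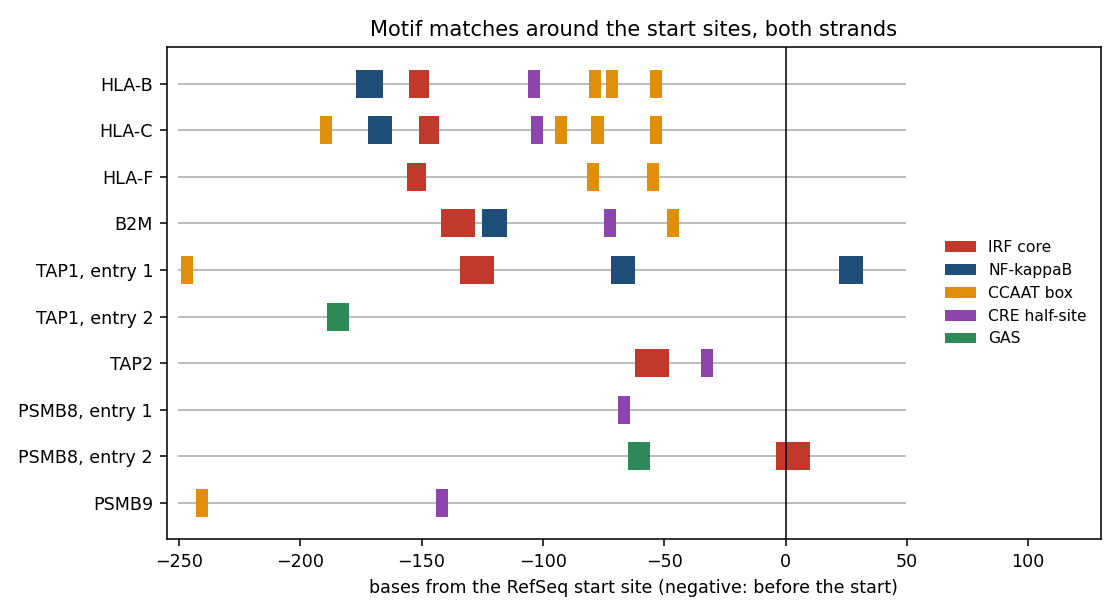
Motif matches on both strands from 250 bases before to 50 bases after the RefSeq start sites of 8 genes, with 1 line per promoter entry and coloured boxes for each motif; the x axis gives bases from the start. The IRF core lies between 121 and 156 bases before the start in HLA-B, HLA-C, HLA-F, B2M and the first entry of TAP1, close to the start in TAP2 and the second entry of PSMB8, and PSMB9 has none.

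To ask how abundant each component was, counted reads were scaled by exon length and library total (RPKM), which allows genes to be compared with each other. In control libraries the order of the mean levels was B2M (453 RPKM), HLA-B (119), HLA-C (89.1), HLA-E (73.5), PSMB8 (22.6), TAP1 (13.9), TAP2 (5.68), PSMB9 (4.31) and HLA-F (0.299). No neighbours in this order overlapped between the control libraries. B2M stood at the 99.7th percentile of all genes tested, HLA-B and HLA-C at the 98.4th and 98.2nd, and HLA-F at the 12.4th. In knockdown libraries HLA-C had 162 and 149 RPKM and HLA-B 157 and 139 RPKM, so that these neighbours overlapped, while in control libraries HLA-C, at 88.9 and 89.2 RPKM, lay below HLA-B, at 122 and 116 RPKM. The 9 genes together took 0.245% and 0.239% of the counted reads in control and 0.28% and 0.264% in knockdown libraries.

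**Figure D2:**
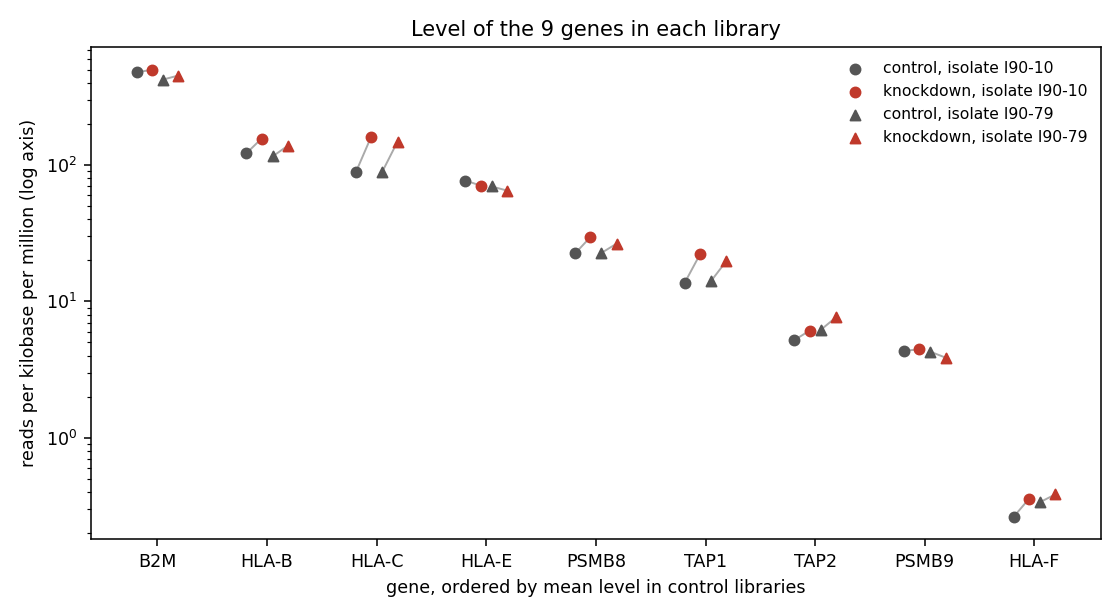
Level of each gene in each library in RPKM, on a log axis, with control libraries in grey and knockdown libraries in red, circles for isolate I90-10, triangles for I90-79 and a line joining the libraries of 1 isolate. B2M lies highest, between 425 and 502 RPKM, HLA-F lowest, between 0.262 and 0.383 RPKM, and HLA-C shows the steepest lines.

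The effect of HMGB1 depletion was then tested with edgeR's quasi-likelihood fit over all 15398 genes, with calls made where the adjusted p was under 0.01 and the log2 fold change beyond 0.6 in size. In this fit, which has no term for the isolate, 0 of the 9 genes were called in either direction, beside 0.0649% of all genes called upregulated and 0.136% called downregulated. When a replicate block for the isolate was added, which uses the pairing of the libraries, 1 of the 9, HLA-C, was called upregulated and 0 downregulated, beside 6.68% and 7.84% of all genes. DESeq2 without the block called HLA-C alone upregulated, beside 5.33% of the genes it gave an adjusted p, and RUVs, a method that removes unwanted variation and was followed by DESeq2, called HLA-C and TAP1, beside 6.33%. By direction alone, 7 of the 9 were higher and 2 lower in the knockdown, with a median log2 fold change of 0.30, against −0.005 over all genes tested. The median of the 9 was 0.17 without control replicate 1. For 5 genes (HLA-B, HLA-C, HLA-F, TAP1 and PSMB8) both knockdown libraries lay above both control libraries, and for 0 both lay below, while this held for 29.8% and 30.2% of all genes. An unadjusted p below 0.05 was seen for 3 higher and 0 lower members, beside 13.6% and 14.7% of all genes. In bulk RNA, a change in the number of cells that express a gene and a change in the RNA per cell cannot be told apart.

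Among the heavy chains, HLA-C, a classical chain that also serves as a ligand of killer cell receptors, had the largest log2 fold change of the 9. It had 223 and 224 CPM in the control libraries of I90-10 and I90-79 and 406 and 372 CPM in the knockdown libraries. The groups did not overlap, and the gap between them was several times the spread within either. The log2 fold change was 0.80 (standard error 0.12), or 74.3% more, with an edgeR adjusted p of 0.0265, above the threshold, and of 6.39e-04 with the replicate block, which passed it. Within I90-10 the log2 difference was 0.86 and within I90-79 it was 0.74.

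HLA-B, the other classical chain measured here, had 366 and 351 CPM in control and 474 and 420 CPM in knockdown libraries. The groups did not overlap, but the difference was smaller than that of HLA-C: the log2 fold change was 0.32 (standard error 0.13), with edgeR adjusted p values of 0.193 and, with the block, 0.0369. HLA-E, a chain of low diversity that presents leader peptides of other class I chains to natural killer cells, had 229 and 208 CPM in control and 211 and 194 CPM in knockdown libraries. Its groups overlapped, and the log2 fold change was −0.11 (standard error 0.12, edgeR adjusted p = 0.595, with the block 0.386).

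HLA-F, a little expressed non-classical chain, had 36 and 58 counted reads in control and 48 and 56 in knockdown libraries. At this depth its log2 fold change of 0.30 was about as large as its standard error of 0.31 (edgeR adjusted p = 0.565), so a change of this size was not detectable. Leaving out control replicate 1 gave 0.13, and leaving out control replicate 2 gave 0.495. The antisense gene HLA-F-AS1, which overlaps it, had between 14 and 26 reads, and 33.7% of the exonic bases of HLA-F lie in another gene. The counting was not stated to use the strand, so reads of HLA-F and its antisense partner cannot be separated.

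Reads of one heavy chain can also match another. Of all 50-base pieces of the annotated transcripts, 1.75% for HLA-B, 5.46% for HLA-C, 4.01% for HLA-E and 0.524% for HLA-F occurred in another HLA gene. Other genes of any kind shared 41.4% of the pieces of HLA-B, and the pseudogene DHFRP2 alone shared 27.9%. These pieces come from all GENCODE transcripts of the gene, not only from the counted exons. Of the counted exonic bases of HLA-B, 18.0% lie in another gene, which had at most 2 reads in any library. So in the reference annotation a small share of each chain is found in other HLA genes. The reads were mapped to the reference alleles, and the alleles carried by these isolates were not read here.

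B2M, the light chain that pairs with class I heavy chains, was the most abundant of the 9. It had 1510 and 1340 CPM in control and 1580 and 1440 CPM in knockdown libraries. The groups overlapped, and within each isolate the knockdown library was slightly higher. The log2 fold change was 0.08 (standard error 0.16, edgeR adjusted p = 0.778, with the block 0.551), and it was −0.004 without control replicate 2. The 4 heavy chains summed per kilobase stood at 0.60 and 0.649 of B2M in control and at 0.778 and 0.776 in knockdown libraries. The log2 difference of this ratio was 0.32, larger than the spread within the groups, and the two-sided exact permutation test gave p = 0.333, the smallest value that 2 libraries against 2 allow.

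Ratios within a library do not depend on its scaling, and the single-gene ratios that follow were chosen after the values had been seen. HLA-C reads per HLA-E read numbered 0.972 and 1.08 in control and 1.93 and 1.92 in knockdown libraries, a log2 difference of 0.91. HLA-C reads per HLA-B read numbered 0.608 and 0.637, and then 0.857 and 0.886, a log2 difference of 0.48. The groups did not overlap in either ratio, and HLA-C was higher relative to both other chains in the knockdown of both isolates (exact permutation p = 0.333 for each).

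TAP1 and TAP2 form the peptide transporter as a heterodimer. TAP1 had 64.9 and 67.1 CPM in control and 105 and 93.9 CPM in knockdown libraries, without overlap. Its log2 fold change was 0.59 (standard error 0.12), or 50.9% more, with edgeR adjusted p values of 0.0437 and, with the block, of 0.00343. In the block fit TAP1 thus passed the threshold on p and stayed just below the threshold of 0.6 on the fold change. TAP2 had 33.2 and 39.4 CPM in control and 39.0 and 48.9 CPM in knockdown libraries, where the groups overlapped and I90-79 was the higher isolate in both. It was higher in the knockdown within each isolate, by 0.23 and 0.31 on the log2 scale. The log2 fold change was 0.28 (standard error 0.17), with edgeR adjusted p values of 0.331 and, with the block, of 0.0729. It was 0.16 without control replicate 1, 0.11 without knockdown replicate 2 and 0.43 without knockdown replicate 1. The ratio of TAP1 to TAP2 reads was 1.96 and 1.70 in control and 2.70 and 1.92 in knockdown libraries, and these ranges overlapped. Of the exonic bases of TAP2, 32.3% lie in another gene, a read-through model with at most 1 read in any library. That count does not show how reads on the shared bases were assigned. With all its reads placed on the other bases, TAP2 had 7.68 and 9.12 RPKM in control and 9.03 and 11.3 RPKM in knockdown libraries.

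PSMB8 and PSMB9 encode the catalytic subunits that replace PSMB5 and PSMB6 in the immunoproteasome. PSMB8 had 45.2 and 45.6 CPM in control and 59.6 and 53.3 CPM in knockdown libraries, without overlap. Its log2 fold change was 0.31 (standard error 0.12), with edgeR adjusted p values of 0.157 and, with the block, of 0.0496. PSMB9 had 13.3 and 13.1 CPM in control and 13.7 and 11.9 CPM in knockdown libraries. The knockdown libraries lay on either side of the controls, and the log2 fold change was −0.05 (standard error 0.16, edgeR adjusted p = 0.864, with the block 0.796), turning to 0.051 without knockdown replicate 2. Of the exonic bases of PSMB8, 21.2% lie in the antisense gene PSMB8-AS1, which had between 24 and 47 reads, against 1328 or more for PSMB8.

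TAP1 and PSMB9 lie head to head, and their start sites in RefSeq are 488 bases apart, transcribed away from each other. TAP1 reads per PSMB9 read numbered 4.86 and 5.11 in control and 7.70 and 7.90 in knockdown libraries, a log2 difference of 0.65 without overlap (exact permutation p = 0.333).

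The inducible subunits were also set against their constitutive counterparts. The ratio of PSMB8 to PSMB5 per kilobase was 0.205 and 0.207 in control and 0.197 and 0.182 in knockdown libraries. PSMB5 itself had 194 CPM in both control libraries and 266 and 258 CPM in knockdown libraries (log2 fold change 0.43, standard error 0.11, edgeR adjusted p = 0.0764, with the block 0.00888). The ratio of PSMB9 to PSMB6 was 0.0462 and 0.0439 in control and 0.0414 and 0.0354 in knockdown libraries. The third inducible subunit, PSMB10, and its counterpart PSMB7 differed more, with a ratio of 0.0913 and 0.0841 in control and 0.0397 and 0.0316 in knockdown libraries, a log2 difference of −1.31. The groups did not overlap in any of these 3 ratios, and in each the knockdown was lower (exact permutation p = 0.333 for each). Of the exonic bases of PSMB10, 34.8% lie in another gene on the same strand, so its level per kilobase is uncertain. PSMB8 and PSMB9 summed over PSMB5 and PSMB6 gave 0.132 and 0.130 in control and 0.132 and 0.119 in knockdown libraries, a log2 difference of −0.06 that turned to 0.013 without knockdown replicate 2.

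**Figure D3:**
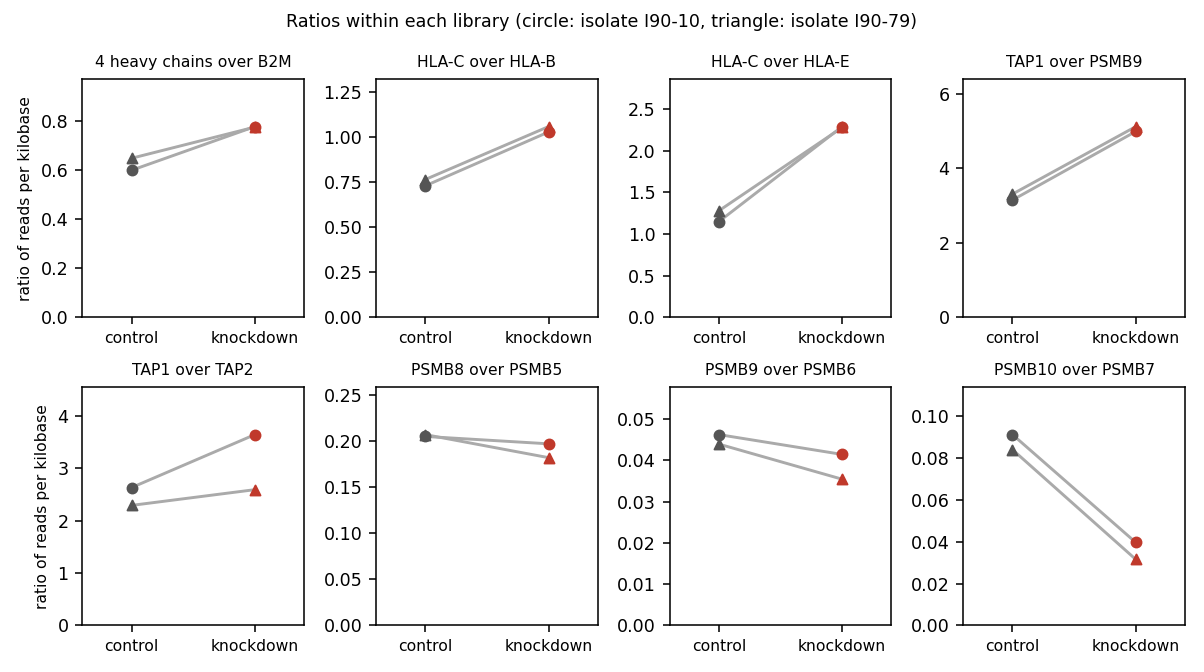
Ratios of reads per kilobase between a pair of genes, or between the 4 heavy chains and B2M, within each library, with circles for isolate I90-10 and triangles for I90-79, and each y axis starting at 0. The ratios of HLA-C to HLA-B and to HLA-E and of TAP1 to PSMB9 are higher in both knockdown libraries than in both controls, and those of the 3 inducible subunits to their counterparts are lower.

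**Figure D4:**
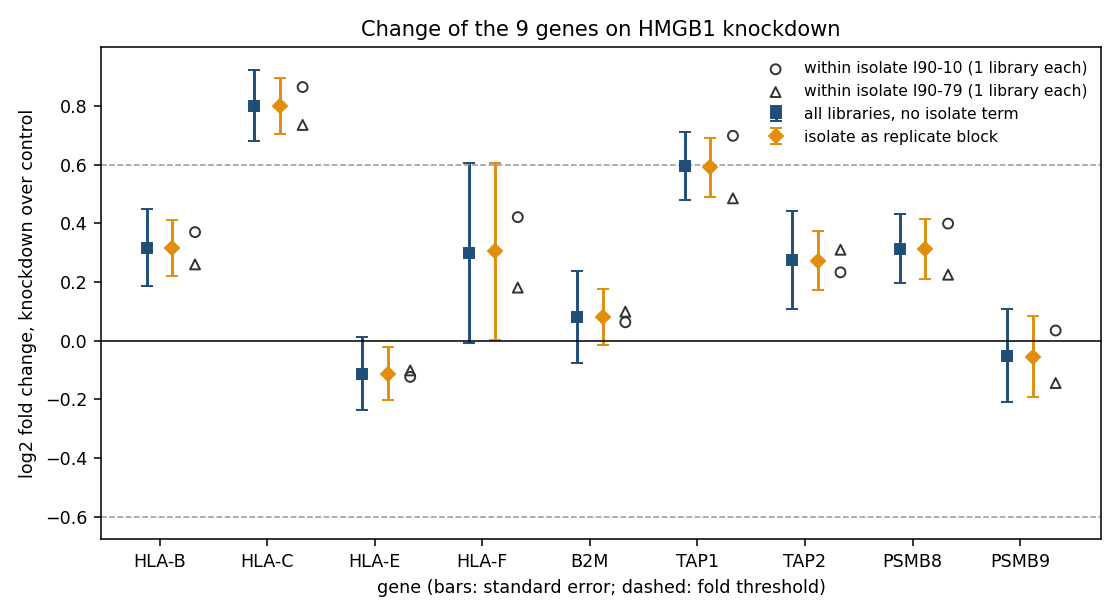
Log2 fold change of each gene, knockdown over control, with squares for the fit without a term for the isolate, diamonds for the fit with a replicate block, bars for standard errors, open symbols for the difference within each isolate, and dashed lines at the threshold of 0.6. HLA-C lies above the line at 0.80, TAP1 just under it at 0.59, HLA-B, HLA-F, TAP2 and PSMB8 between 0.28 and 0.32, and B2M, HLA-E and PSMB9 near 0.

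Across the isolates, 8 of the 9 genes moved in the same direction in both, PSMB9 being the exception. The same held for 12058 of the 15398 genes tested, so such agreement was common. The difference was larger in I90-10 than in I90-79 for HLA-B (0.37 against 0.26), HLA-C, HLA-F (0.42 against 0.18), TAP1 (0.70 against 0.49) and PSMB8 (0.40 against 0.23), and smaller for TAP2 and B2M. With 1 library per isolate and group, these differences between isolates could not be tested.

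Other genes of the pathway were described by lists, whose calls with the block stand beside 6.68% of all genes tested called upregulated and 7.84% called downregulated. Of the 7 loading factors and chaperones of the endoplasmic reticulum, 1 was higher and 6 were lower, with a median log2 fold change of −0.18. CANX, the calnexin that holds newly made heavy chains, was called downregulated with the block (−0.80, standard error 0.09, edgeR adjusted p = 5.96e-04) but not without it (adjusted p = 0.0554), with 835 and 1020 CPM in control and 483 and 580 CPM in knockdown libraries. It was the single call of this list. Of the 9 peptide-trimming enzymes, 0 were called by edgeR in either fit or by DESeq2, although 4 higher and 0 lower had an unadjusted p below 0.05, as had 13.6% and 14.7% of all genes. The smallest p values belonged to the aminopeptidases LNPEP, at 0.56 (standard error 0.12, edgeR adjusted p = 0.0551, with the block 0.0046), and NPEPPS, at 0.45 (standard error 0.14, edgeR adjusted p = 0.113, with the block 0.00885).

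The 8 other proteasome genes had 7 higher and 1 lower in the knockdown, with a median of 0.19. With the block, PSMB7 was called upregulated (0.60, edgeR adjusted p = 0.00212) and PSMB10 downregulated (−0.70, edgeR adjusted p = 0.00832), and edgeR called neither without it. PSMB10 was called in this fit alone of 13, and DESeq2 with the block gave it an adjusted p of 0.0144. PSMB7 had 197 and 225 CPM in control and 310 and 332 CPM in knockdown libraries, while PSMB10 had 15.5 and 16.3 CPM and then 10.6 and 9.03 CPM.

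Of 11 other class I and class I-like chains, 10 were tested, and with the block 1 was called upregulated and 1 downregulated, or 10.0% each, near the 6.68% and 7.84% of all genes. Without the block 0 were called, and 1 was without control replicate 1. MICA and ULBP2 both encode stress-induced ligands of the natural killer cell receptor NKG2D, and they went in opposite directions. MICA had 42.7 and 40.8 CPM in control and 88.3 and 74.5 CPM in knockdown libraries (log2 fold change 0.96, standard error 0.13, edgeR adjusted p = 0.0213, with the block 3.94e-04). ULBP2 had 7.42 and 8.6 CPM in control and 1.77 and 2.21 CPM in knockdown libraries (−2.01, standard error 0.24, edgeR adjusted p = 0.0168, with the block 2.88e-04). MICA is a neighbour of HLA-B on chromosome 6.

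Of the 18 regulators of class I transcription, 10 were higher and 8 lower, and with the block 1 was called upregulated (5.56% of the list, beside 6.68% of all genes) and 4 downregulated (22.2%, beside 7.84%). JAK2, a kinase of the interferon gamma receptor, was the one called upregulated, from 19.8 and 24.4 CPM to 38.4 and 47.4 CPM (0.95, edgeR adjusted p = 0.0382, with the block 4.23e-04). RFXAP, a subunit of the RFX complex that binds class I and class II promoters, fell from 4.26 and 3.50 CPM to 0.589 and 0.993 CPM (−2.28, standard error 0.36, edgeR adjusted p = 0.0278, with the block 0.00152). The NF-Y subunit gene NFYB (−0.83), the interferon regulatory factor gene IRF2 (−0.74) and SOCS1, which restrains interferon signalling (−0.83), were also called downregulated with the block, at edgeR adjusted p values of 0.00298, 0.00312 and 0.00114, and of 0.0442, 0.0487 and 0.30 without it. SOCS1 differed by more between isolates than between groups, with 51.4 and 27.8 CPM in control and 31.1 and 14.5 CPM in knockdown libraries. Its log2 fold change in the fit lacking the block shifted to −0.29 without control replicate 1, −0.34 without knockdown replicate 2 and −1.45 without knockdown replicate 1.

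Of the 10 class II genes, 6 had too few reads to be tested and 0 of the 4 tested were called by edgeR in either fit or by DESeq2. HLA-DMA, a class II peptide exchange factor, had between 19 and 46 reads, and CIITA, the class II transactivator, between 8 and 17 reads. Unadjusted p values below 0.05 were seen for 0 of the 4.

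Of 15 other genes known to be induced by interferon, all were tested, 10 were higher and 5 lower, and the median log2 fold change was 0.58. Without the block 0 were called with all libraries, 3 without control replicate 1 and 5 without control replicate 2, and 7 higher and 3 lower had an unadjusted p below 0.05, beside 13.6% and 14.7% of all genes. With the block 7 were called upregulated and 3 downregulated, or 46.7% and 20.0% of the list beside 6.68% and 7.84% of all genes. IFIT3, an interferon-induced antiviral protein, had 40.2 and 47.9 CPM in control and 131 CPM in both knockdown libraries (log2 fold change 1.57, standard error 0.13, edgeR adjusted p = 0.0104, with the block 6.44e-05). Its relatives IFIT2 and IFIT1 had log2 fold changes of 1.29 and 1.12, the ubiquitin-like ISG15 of 1.37 and IFI6 of 1.19, and both knockdown libraries lay above both controls for each. GBP2, an interferon-induced GTPase, moved the other way, from 86.6 and 65.5 CPM to 47.2 and 36.7 CPM (−0.86, edgeR adjusted p = 0.061, with the block 5.14e-04). The other 2 genes called downregulated with the block, named after their values were seen, were GBP1 (−0.98) and BST2 (−1.54).

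**Figure D5:**
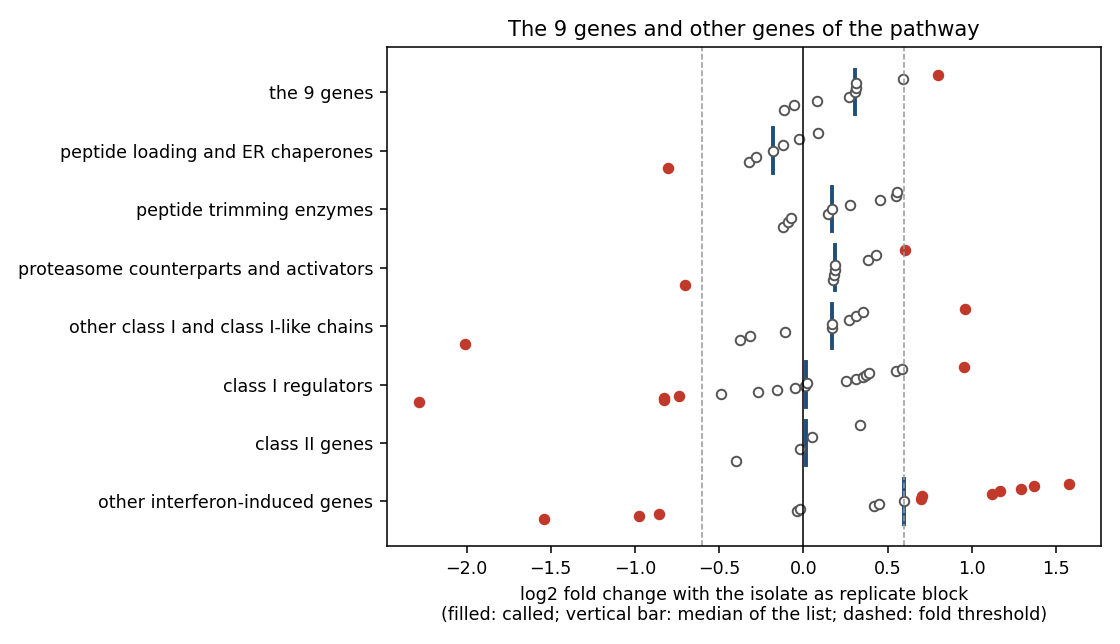
Log2 fold change in the fit with the replicate block, on the x axis, for every tested gene of the 9 and of 7 lists of pathway genes, 1 list per row, with filled red points for called genes, a blue bar for the median of each list and dashed lines at the threshold of 0.6. HLA-C is the one filled point among the 9 genes, while 10 of the 15 interferon-induced genes are filled, 7 to the right and 3 to the left.

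In an earlier analysis of these data, genes with the word GCAGTT in the 3′ UTR were seen to be lower in the knockdown. Here 42.2% of the tested genes with an annotated 3′ UTR of at least 100 bases held it, and 15.3% of those were called downregulated with the block, against 4.2% of genes without a copy. These shares come from the same libraries that gave the word, so they are not a separate test. The length of the 3′ UTR was not taken into account. The word was present once in HLA-B, HLA-F, TAP1 and TAP2 and absent from the other 5 genes. Among the pathway genes called downregulated with the block, 5 of 10 held it, with 3 copies in CANX and 2 in RFXAP. Among those called upregulated, HLA-C included, 3 of 11 held it, with at most 3 copies. Its part in these changes was not tested.

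The genes whose levels followed the 9 most closely were sought among 12781 genes averaging 1 CPM or more, by the root mean squared difference of the centred log2 CPM values over the 4 libraries from the median profile of the 9. The nearest 5 outside the lists were PRPF31, ZMYM1, PARN, NDUFB3 and ZSCAN26, at differences between 0.0273 and 0.0287. In all, 1502 genes lay within 0.1 of this profile, so that it was a common one. Among the 9 themselves, PSMB8 (0.064) and HLA-B (0.0756) were nearest to it and HLA-C (0.284) and HLA-E (0.19) farthest.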

How the data were processed

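The data were 4 RNA-seq libraries, 2 control and 2 HMGB1 knockdown. The authors aligned reads with STAR to hg19 and deposited raw read counts per gene from featureCounts, with no scaling. Versions and the strand setting are not given in the sources used here. In the files, 0 reads fall on the 5904 genes of contigs. Gene identifiers were matched to symbols with the reference table of names, and of 113 listed symbols 112 had a row.

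Counts were tested with edgeR 4.0.16 (R 4.3.3, limma 3.58.1), with filterByExpr (15398 genes), TMM scaling, the quasi-likelihood test, and Benjamini-Hochberg adjustment over all genes. CPM and RPKM use TMM-scaled totals. With 2 libraries against 2, p values compare the change with a spread estimated from these libraries and moderated over all genes tested. This spread includes the isolate difference in the fit without the block and leaves it out in the fit with the block. The same isolate stands in both groups, so replicate numbers pair the libraries (the isolate difference had r = 0.464 between groups, across 15398 genes, which are not independent replicates), and a fit with the isolate as replicate block is given beside the results. Per-isolate values are differences of log2 CPM with a prior count of 2. Fits were tested on simulated counts. Alternatives were DESeq2 1.42.0, RUVs with 1 factor, other scalings, filters and thresholds, and leaving out each library.

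The members and lists were chosen with earlier results of these data known. Named were all 9 genes and HMGB1; per list, the genes called in either fit (at most the 6 with the smallest block p) or otherwise the 2 with the smallest p; and the 5 nearest profiles. NLRC5, IRF1 and TAPBP, named in the closing section, PSMB5, the marker genes, and the overlapping genes were named after values were seen. Promoters are from RefSeq (GRCh38.p14), exon overlaps from the files, and transcript pieces and 3′ UTRs from GENCODE lifted to GRCh37.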

Additional observations from a re-analysis of the deposited data

Results flagged for a closer look

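The isolates moved in opposite directions for a pair of named genes. For PSMB9 the log2 change was 0.035 in I90-10 and −0.144 in I90-79, and for CIITA it was 0.818 and −0.284, from between 8 and 17 reads per library. The difference between isolates was not tested, since each isolate had 1 library per group.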

How the results depend on the processing

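Over the 9 genes and 12 alternative fits, 99 of 108 values kept their direction and side of the threshold, 7 passed it and 2 changed sign. HLA-C passed it in 5 of 13 fits and TAP1 in 2. The replicate block changed the call of HLA-C and of no other of the 9. The members called numbered 1 with DESeq2 (HLA-C), 2 with RUVs and 2 with no filter on low counts (HLA-C and TAP1), 1 with the replicate block, with or without DESeq2, 1 at an adjusted p below 0.05 with or without the block, and 2 at any fold change with the block. For the loading and chaperone list, 1 was called with DESeq2, RUVs, no filter and each form of the block. For the trimming enzymes it was 2 at any fold change with the block. For the proteasome list it was 1 with DESeq2, no filter or DESeq2 with the block, 2 with the block at either p threshold, and 3 at any fold change. For the class I-like chains it was 2 under DESeq2, RUVs, no filter, an adjusted p below 0.05 and each form of the block. For the regulators it was 4 with DESeq2 or an adjusted p below 0.05, 5 with RUVs, no filter or the block, and 7 at any fold change with the block. For the interferon-induced list it was 8 with DESeq2, 9 with RUVs or DESeq2 with the block, 10 with no filter or the block, and 5 at an adjusted p below 0.05. The cause of these differences was not tested.

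Leaving out 1 library in turn gave a median over the 9 genes between 0.17 (without control replicate 1) and 0.32, and 0 of them called. The class I-like count ranged from 0 to 1 (without control replicate 1) and the interferon-induced count from 0 to 5, with 3 without control replicate 1 and 5 without control replicate 2. HMGB1 stayed between −3.77 and −3.38, with an adjusted p of 0.0487 without knockdown replicate 1 and 0.0324 without knockdown replicate 2. Ranges crossed 0 for B2M (−0.004 to 0.169), PSMB9 (−0.158 to 0.051), HLA-DMA (−0.928 to 0.272), CIITA (−0.303 to 0.891) and the ratio of PSMB8 and PSMB9 to PSMB5 and PSMB6 (−0.137 to 0.013). Depth limits HLA-F and the class II genes, and no test with 2 libraries in a group separates small changes from the spread.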

Other observations

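Activators of class I transcription that were not called are given here as values. NLRC5, the class I transactivator, had 26 and 27.7 CPM in control and 32.7 and 35.8 CPM in knockdown libraries (log2 fold change 0.35, edgeR adjusted p = 0.143, with the block 0.0346). IRF1 had 55.9 and 59.4 CPM and then 72.2 and 77.1 CPM (0.37, edgeR adjusted p = 0.103, with the block 0.0199). For each, both knockdown libraries lay above both controls, as for 29.8% of all genes. TAPBP, the tapasin that links heavy chains to the transporter, had 185 and 163 CPM in control and 149 and 130 CPM in knockdown libraries (−0.32, edgeR adjusted p = 0.196, with the block 0.0291).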
